A study of Mus musculus with 6 samples.

Results

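The ISG15 conjugation pathway was described in resting bone-marrow-derived macrophages (BMDMs) through 5 genes, *Isg15*, *Uba7*, *Ube2l6*, *Herc6* and *Usp18*. They were taken by gene name from the 22248 genes listed with an expression value in each library, and each name matched 1 row. BMDMs are macrophages grown ex vivo from bone marrow in medium with macrophage colony-stimulating factor, and no further stimulus is given for these samples. The comparison was between 3 control libraries from *Lyz2cre* mice and 3 CITED2-deficient libraries from *Lyz2cre*:*CITED2Fl/Fl* mice, both C57BL/6 and labelled postnatal week 10. Both genotypes carry a Cre allele at the *Lyz2* locus, which is active in myeloid cells, and in the second genotype Cre removes the floxed part of *Cited2*. Cells that did not switch on the *Lyz2* locus would keep the gene. CITED2 is a transcriptional coregulator, and the study asked whether its loss raises inflammatory gene expression in unstimulated macrophages.

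ISG15 is a small ubiquitin-like protein made in cells that respond to interferon. It is joined to other proteins by a chain of 3 enzymes. UBA7 activates it (the E1 step), the UBE2L6 protein carries it (the E2 step), and in mice HERC6 is the main ligase that places it on target proteins (the E3 step). USP18 takes ISG15 off again, and it also binds the interferon receptor subunit IFNAR2 and dampens signaling from that receptor. Free ISG15 can leave the cell and act on lymphocytes through the integrin LFA-1. In macrophages the pathway is known for its role in antiviral defense, and all 5 genes are textbook targets of type I interferon. The transcription factor complex that holds STAT2 and IRF9 drives such genes from a promoter element called the interferon-stimulated response element (ISRE).

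Promoters of the pathway genes are shown first, and their part in the expression differences was not tested. RefSeq promoters of the build GRCm38.p6, the assembly that mm10 stands for, were held for 4 of the 5 genes, all but *Usp18*. Each covers 250 bases before the RefSeq start of the gene and 50 after it. For *Uba7* that start lies downstream of chr9:107975505, where the gene span given below begins. *Isg15*, which changed most, and *Uba7*, which changed least, are printed 5′ to 3′ on the gene's own strand. The *Isg15* window is chr4:156200769-156201068 on the minus strand, and its capitals mark matches to an ISRE core, GAAANNGAAA. The *Uba7* window is chr9:107975317-107975616 on the plus strand, and its capitals mark the only match there to the shorter core AAANNGAAA, read on the opposite strand.
Isg15: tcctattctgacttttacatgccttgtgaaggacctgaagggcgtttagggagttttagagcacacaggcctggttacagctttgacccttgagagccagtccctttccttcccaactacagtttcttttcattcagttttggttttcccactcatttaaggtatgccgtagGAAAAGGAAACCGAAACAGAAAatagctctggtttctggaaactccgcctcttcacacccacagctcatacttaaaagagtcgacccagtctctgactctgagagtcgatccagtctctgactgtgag
Uba7: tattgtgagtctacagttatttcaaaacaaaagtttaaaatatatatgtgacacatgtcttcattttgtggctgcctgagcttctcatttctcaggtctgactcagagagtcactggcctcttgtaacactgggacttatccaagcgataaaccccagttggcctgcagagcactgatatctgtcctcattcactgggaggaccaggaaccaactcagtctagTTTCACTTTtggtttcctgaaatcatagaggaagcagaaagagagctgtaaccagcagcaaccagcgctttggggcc
The *Isg15* window held 3 overlapping matches to GAAANNGAAA on the gene strand, at -78 to -69, -72 to -63 and -66 to -57 from the start. A match to this motif on either strand was found in 3.44% of 32851 mouse promoters of this length. The shorter core, which every GAAANNGAAA match contains, was found in 10.6% of them. The *Uba7* match lay at -27 to -19 from its RefSeq start, inside the span given for that gene below. The *Ube2l6* and *Herc6* windows held neither motif. A core of the gamma-activated site, TTCNNNGAA, was found in 8.3% of promoters and in none of the 4 windows. These matches describe letters in a short window and were not compared with any binding data.

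The samples were checked before the pathway was examined. The value deposited for each gene and library is FPKM, the number of fragments scaled to transcript length and to library size. Library depth, recovered from the steps between FPKM values, was 17289286 to 18952077 fragments in control BMDMs and 22583995 to 26100410 in CITED2-deficient BMDMs. *Cited2* had 75.5 ± 3.79 FPKM (SD, n = 3) in control and 8.01 ± 1.10 FPKM (SD, n = 3) in CITED2-deficient libraries, with a log2 fold change of -3.09, so each library matched its label. All 8 macrophage markers examined were above 1 FPKM. Their summed level, carried by *Adgre1*, *Cd68* and *Csf1r*, was 5620 to 5690 FPKM in control and 5290 to 5370 FPKM in CITED2-deficient libraries. Of the 8, 5 passed as lower, among them *Lyz2*, the locus that carries Cre (31.3 to 9.75 FPKM), and *Itgam* (89.7 to 50.9 FPKM), and 1 as higher, *Fcgr1* (172 to 482 FPKM). Of 8 neutrophil markers, 7 were tested, 5 were lower, *Mpo* most (16.2 to 1.95 FPKM), and 1 was higher, *Ltf* (94.3 to 177 FPKM), with sums of 727 to 795 and 658 to 777 FPKM. Of 8 fibroblast or stromal markers, 7 were tested and all 7 were higher in CITED2-deficient BMDMs. Their summed level was 42.3 to 50.5 FPKM in control libraries, 546 FPKM in CITED2-deficient replicate 1 and 172 FPKM in each of replicates 2 and 3. Plasmacytoid dendritic cell markers summed to 99.0 to 107 FPKM in control and 94.7 to 99.5 FPKM in CITED2-deficient libraries, and *Tcf4*, which other cells also express, carried nearly all of it (101 and 95.2 FPKM), while *Siglech*, *Ccr9* and *Pacsin1* were under 1 FPKM. The 5 conventional dendritic cell markers were below the filter. Their sums were 0.671 to 1.00 FPKM in control and 2.84 to 3.68 FPKM in CITED2-deficient libraries, which did not overlap. *Dpp4* went from 0.135 to 1.71 FPKM, and *Clec9a* and *Xcr1* were also higher without overlap. The groups overlapped for *Flt3* (0.0337 to 0.0465 FPKM) and *Zbtb46* (0.189 to 0.217 FPKM). Marker sums in control and CITED2-deficient libraries were 6.60 to 7.66 and 4.16 to 5.77 FPKM for T cells (nearly all *Cd4*), 2.14 to 3.29 and 2.07 to 2.82 FPKM for B cells, 0.0391 to 0.254 and 0.130 to 0.344 FPKM for NK cells, and 1.09 to 1.84 and 0.421 to 0.618 FPKM for mast cells and basophils. Beside these marker counts, 16.7% of all tested genes passed as higher and 34.6% as lower. The part of any of these markers in the pathway results was not tested. In such bulk samples, fewer cells of a type and less RNA per cell cannot be told apart.

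The genotypes were compared gene by gene with limma on log2(FPKM + 1) over the 11687 genes with a mean of at least 1 FPKM, and log2 fold changes are on that scale, which understates changes of low genes. The threshold was an adjusted p (Benjamini-Hochberg) of 0.05 over all tested genes, and 51.3% of them passed, 16.7% as higher and 34.6% as lower in CITED2-deficient BMDMs. Only 32.5% of the calls were therefore higher, against 52% after median-ratio scaling of the libraries, and the median change over all tested genes was -0.10 on the log2 scale against -0.007 after that scaling. All 5 pathway genes were tested, and 5 of 5 passed as higher, beside 16.7% of tested genes. A fold change of at least 2 was reached by 4 of the 5, all but *Uba7*, beside 3.72% of tested genes. The 3 CITED2-deficient values lay above the 3 control values for 5 of 5 genes, beside 19.0% of tested genes. The median log2 fold change of the 5 genes was 1.82. With 3 against 3 libraries an exact permutation test of a single gene cannot go below p = 0.1, which it gave for each of the 5. The sources used here do not say that each library came from its own animal, so p-values measure the spread between these libraries, which may be technical.

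*Isg15* (ENSMUSG00000035692, chr4:156199424-156200818 in mm10, minus strand) encodes the modifier itself. The control libraries, replicates 1 to 3, held 20.1, 19.5 and 22.9 FPKM, and the CITED2-deficient libraries, in the same order, held 175, 198 and 214 FPKM. The lowest CITED2-deficient library was far above the highest control library. The means were 20.8 ± 1.81 and 196 ± 19.9 FPKM (SD, n = 3 each), a 9.40-fold difference. The log2 fold change was 3.17 (SE 0.079, 95% confidence interval 2.99 to 3.35, adjusted p = 4.2e-09 from limma). *Isg15* was thus number 23 of the 11687 tested genes in order of log2 fold change. Between 255 and 328 fragments per control library and between 3357 and 4228 per CITED2-deficient library stood behind these values. Ranked by FPKM among the 22248 listed genes, *Isg15* was number 4878 in control BMDMs and number 543 in CITED2-deficient BMDMs. Without CITED2-deficient replicate 1, which had the lowest *Isg15* of its group, the log2 fold change was 3.25.

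*Uba7* (ENSMUSG00000032596, chr9:107975505-107984060, plus strand) encodes the E1 enzyme that starts the chain. It measured 51.2, 51.5 and 51.6 FPKM in the control libraries and 91.7, 96.0 and 93.5 FPKM in the CITED2-deficient ones, again by replicate. These were the tightest groups among the 5 genes, and they did not overlap. The means were 51.4 ± 0.196 and 93.7 ± 2.16 FPKM (SD, n = 3 each), a 1.82-fold difference. The log2 fold change was 0.85 (SE 0.033, 95% confidence interval 0.78 to 0.93, adjusted p = 6.74e-08 from limma). Although it was the smallest of the 5, it was still number 567 of all tested genes in order of log2 fold change. *Uba7* already ranked number 2340 by FPKM in control BMDMs and was number 1208 in CITED2-deficient BMDMs.

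*Ube2l6* (ENSMUSG00000027078, chr2:84798828-84810335, plus strand) encodes the E2 carrier. Levels were 52.3, 57.0 and 52.4 FPKM without and 167, 188 and 184 FPKM with the CITED2 deficiency, for replicates 1 to 3. Each CITED2-deficient library was therefore above every control library. The means were 53.9 ± 2.71 and 180 ± 11.3 FPKM (SD, n = 3 each), a 3.34-fold difference. On the log2 scale the change was 1.72 (SE 0.053, 95% confidence interval 1.60 to 1.84, adjusted p = 1.64e-08 from limma). By FPKM it was number 2230 of all listed genes in control BMDMs and number 593 in CITED2-deficient BMDMs.

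*Herc6* (ENSMUSG00000029798, chr6:57581000-57664632, plus strand) encodes the ligase. Control BMDMs contained 9.80, 7.10 and 9.35 FPKM of it and CITED2-deficient BMDMs contained 30.3, 35.9 and 33.4 FPKM, replicate by replicate. *Herc6* had the lowest level of the 5 genes in every library, and its groups did not overlap. The means were 8.75 ± 1.44 and 33.2 ± 2.82 FPKM (SD, n = 3 each), a 3.79-fold difference. The log2 fold change was 1.82 (SE 0.11, 95% confidence interval 1.57 to 2.06, adjusted p = 1.35e-06 from limma), with the widest error of the 5. Control replicate 2 had the lowest value, and without this library the log2 fold change was 1.69. Between 244 and 368 fragments per control library and between 1529 and 1730 per CITED2-deficient library were recovered.

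*Usp18* (ENSMUSG00000030107, chr6:121245906-121270917, plus strand) encodes the protease that removes ISG15 and restrains the interferon receptor. Its level by replicate was 21.6, 19.4 and 24.6 FPKM in control BMDMs against 109, 108 and 118 FPKM after CITED2 loss. The eraser of the pathway was thus higher in the same libraries as the modifier and its 3 enzymes. The means were 21.9 ± 2.62 and 112 ± 5.30 FPKM (SD, n = 3 each), a 5.10-fold difference. The log2 fold change was 2.30 (SE 0.076, 95% confidence interval 2.13 to 2.48, adjusted p = 2.58e-08 from limma). Only *Isg15* among the 5 genes had a larger change. Annotated transcripts overlapping *Usp18* and *Uba7* that are listed in the data, *Gm44148* and *Gm20661*, had at most 3 fragments in any library. *Herc6* is overlapped by *Gm45193* on the same strand and *Gm19244* on the opposite strand. Neither has a listed value, so their levels are not known here.

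**Figure D1:**
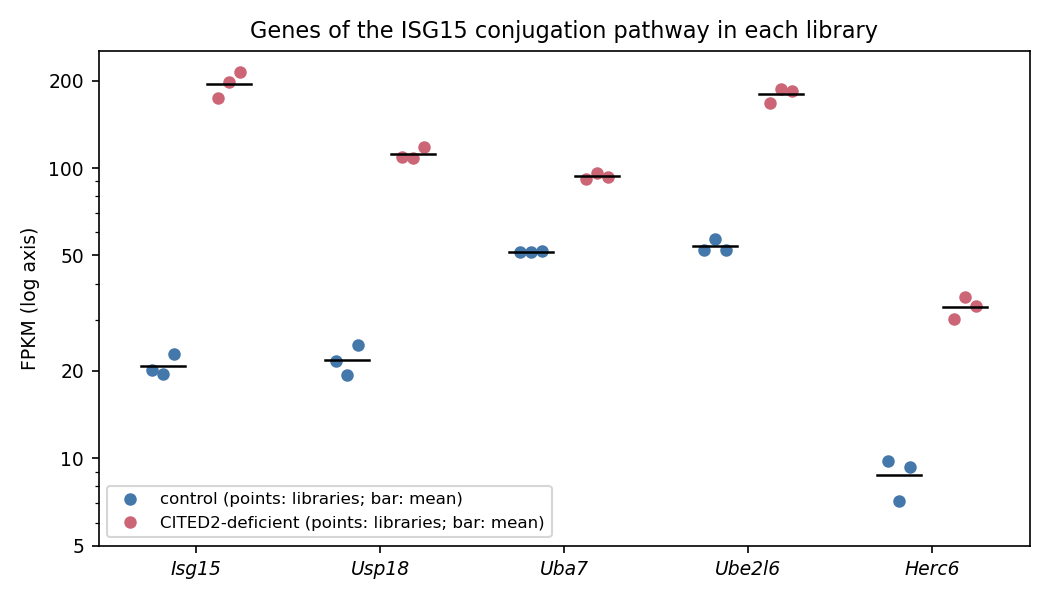
FPKM of the 5 genes on a log axis, with 1 point per library and a bar at the mean of each group of 3. For each gene the 3 CITED2-deficient libraries sit above the 3 control libraries, with the widest gap for *Isg15* (20.8 to 196 FPKM) and the narrowest for *Uba7* (51.4 to 93.7 FPKM).

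The make-up of the pathway differed between the genotypes, since the modifier changed more than its enzymes. The summed level of the 5 genes was 155 to 161 FPKM in control and 573 to 643 FPKM in CITED2-deficient libraries, with means of 157 ± 3.51 and 614 ± 36.6 FPKM (SD, n = 3 each). *Isg15* made up 13.3% ± 0.849 of that sum in control and 31.8% ± 1.42 in CITED2-deficient BMDMs. *Uba7* went the other way, from 32.8% ± 0.655 to 15.3% ± 0.731. The carrier *Ube2l6* held 34.4% ± 2.24 and 29.3% ± 0.717, and the protease *Usp18* held 13.9% ± 1.38 and 18.2% ± 0.919. The share of *Herc6* was 5.58% ± 0.888 and 5.40% ± 0.292, a difference smaller than the spread between control libraries. These shares are of summed FPKM, a level per length of transcript, their errors are SD over 3 libraries, and their differences were not tested. They change with the length used. Per base of the longest transcript *Isg15* kept its level and the other genes were lower, so its share would be larger in both groups.

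**Figure D2:**
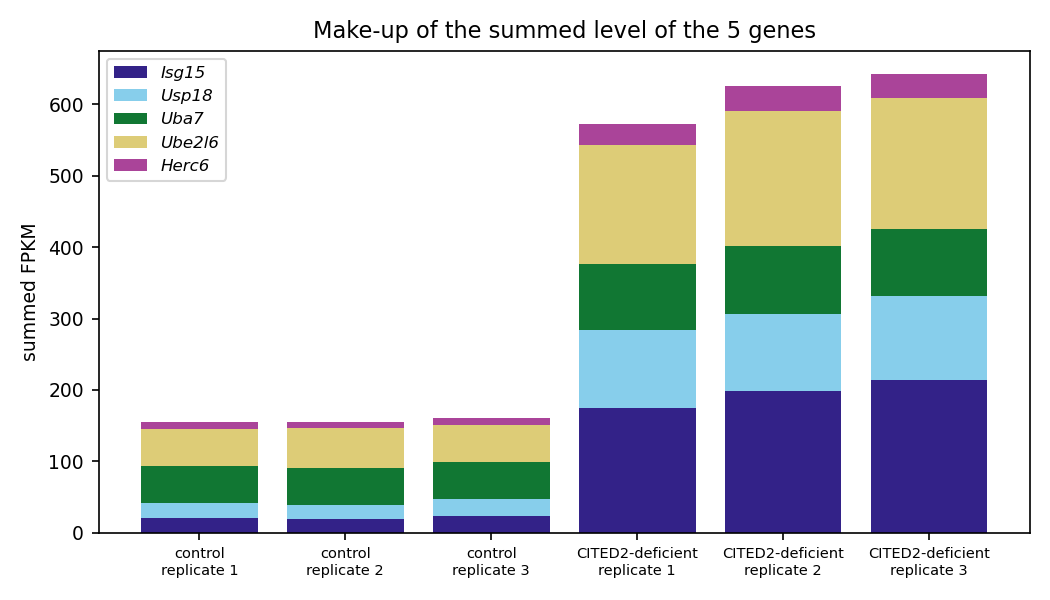
Summed FPKM of the 5 genes in each library, stacked by gene. The sums are 155 to 161 FPKM in control and 573 to 643 FPKM in CITED2-deficient libraries, and *Isg15* grows from 13.3% to 31.8% of the sum on average while *Uba7* shrinks from 32.8% to 15.3%. These percentages depend on the transcript length that FPKM are divided by.

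By FPKM, the order in control BMDMs was *Ube2l6*, *Uba7*, *Usp18*, *Isg15* and *Herc6*. *Usp18* and *Isg15* overlapped there and stood in this order in 2 of 3 libraries, while the other neighbors did not overlap. In CITED2-deficient BMDMs the order was *Isg15*, *Ube2l6*, *Usp18*, *Uba7* and *Herc6*. *Isg15* was above *Ube2l6* in 3 of 3 libraries, but the ranges of these genes overlapped, and the other neighbors did not. The activating enzyme *Uba7* thus went from above *Usp18* and *Isg15* to below both. Levels between genes depend on the length that FPKM are divided by, which here was the mean over annotated transcripts. That mean was 756 bases for *Isg15*, with 1 transcript, and 1843 bases for *Uba7*, with 15 transcripts of up to 3620 bases. Per base of the longest transcript, an alternative chosen after the data were seen, *Isg15* was above *Usp18* in control BMDMs (20.8 ± 1.81 against 10.9 ± 1.31 FPKM, SD, n = 3 each), and their ranges did not overlap. On the same scale *Isg15* had 196 ± 19.9 FPKM in CITED2-deficient BMDMs, also clear of *Ube2l6* at 104 ± 6.50 FPKM.

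Ratios of a pair of genes within a library do not depend on the scaling between libraries, and all 10 pairs of the 5 genes were examined. The ratio of *Isg15* to *Uba7*, modifier to activating enzyme, was 0.392, 0.379 and 0.444 in control libraries and 1.91, 2.06 and 2.29 in CITED2-deficient libraries. It was below 1 in each control library and above 1 in each CITED2-deficient library, a difference of 2.36 on the log2 scale (5.15-fold, SE 0.10). The ratio of *Isg15* to *Usp18*, modifier to eraser, was 0.931, 1.01 and 0.930 in control and 1.60, 1.84 and 1.82 in CITED2-deficient libraries, a difference of 0.87 (1.83-fold, SE 0.074). Relative to the eraser, the modifier was thus higher as well. The ratio of *Isg15* to the carrier *Ube2l6* was 0.384, 0.342 and 0.437 in control and 1.05, 1.05 and 1.16 in CITED2-deficient libraries, a difference of 1.49 (2.81-fold). The ratio of *Isg15* to the ligase *Herc6* was 2.05 to 2.75 in control and 5.52 to 6.42 in CITED2-deficient libraries, 2.46-fold higher. The ratio was thus higher in CITED2-deficient BMDMs in 4 of the 4 pairs with *Isg15* as numerator. That count follows from the fold change of *Isg15*, the largest of the 5, and is not a further result.

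Among the enzymes, the first step of the chain differed less between the genotypes than the later ones. The ratio of *Uba7* to *Ube2l6*, E1 to E2, was 0.980, 0.903 and 0.985 in control libraries and 0.549, 0.510 and 0.507 in CITED2-deficient libraries, a difference of -0.87 on the log2 scale. The ratio of *Uba7* to *Herc6* was 5.23 to 7.25 in control and 2.67 to 3.03 in CITED2-deficient libraries, a difference of -1.07. *Ube2l6* and *Herc6*, E2 and E3, kept closest to each other. Their ratio was 5.33, 8.03 and 5.60 in control and 5.52, 5.24 and 5.53 in CITED2-deficient libraries, a difference of -0.19 (SE 0.19), and the groups overlapped (exact permutation p = 0.4, two-sided). Leaving out each library in turn gave -0.30 to -0.01, so an unequal change of this pair was not detectable here. *Usp18* against *Uba7* differed by 1.49 on the log2 scale, against *Ube2l6* by 0.62 and against *Herc6* by 0.42. In all, 9 of the 10 pairs did not overlap between the genotypes, beside 56.9% of all pairs of tested genes, and for each of the 9 the exact permutation p was 0.1, the smallest possible (0.111 after Benjamini-Hochberg adjustment over the 10 pairs).

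**Figure D3:**
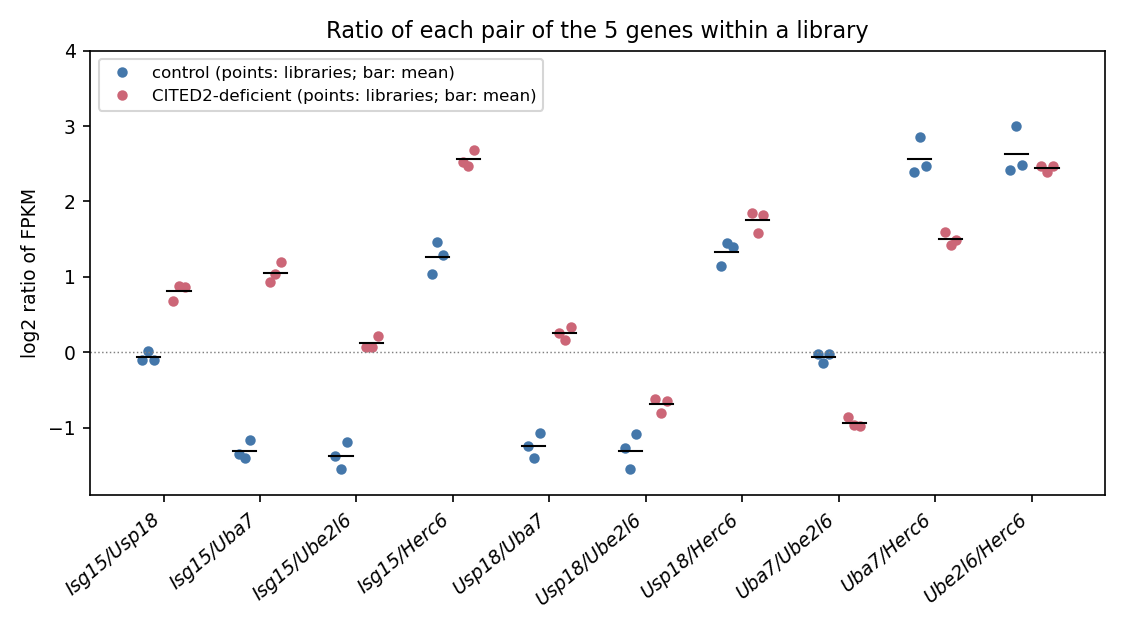
Log2 ratio of FPKM for each of the 10 pairs of genes, with 1 point per library and a bar at the mean of each group of 3. The groups are apart for 9 pairs, with the largest difference for *Isg15*/*Uba7* (2.36), and overlap for *Ube2l6*/*Herc6* (-0.19).

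The receptor and transcription factor genes upstream of the pathway did not move together. Of 6 genes examined, 2 passed as higher and 3 as lower, beside 16.7% and 34.6% of all tested genes. The median log2 fold change of the 6 was 0.001. The transcription factor genes *Stat2* and *Irf9* were the higher ones. *Stat2* went from 59.3 ± 2.36 to 257 ± 12.1 FPKM (log2 fold change 2.10, adjusted p = 1.45e-09 from limma) and *Irf9* from 41.9 ± 1.63 to 67.3 ± 1.90 FPKM (0.67, adjusted p = 1.73e-06; SD, n = 3 each). The change of *Stat2* was thus within the range of the 5 pathway genes, and that of *Irf9* was below it. Both subunits of the type I interferon receptor were lower. *Ifnar1* had 117 ± 1.98 and 97.2 ± 3.83 FPKM (-0.27, adjusted p = 0.00027), and *Ifnar2*, whose product USP18 binds, had 89.8 ± 0.490 and 72.6 ± 1.34 FPKM (-0.30, adjusted p = 4.65e-05). After median-ratio scaling they were still lower, at -0.17 and -0.20. The receptor kinase *Jak1* passed as lower at -0.11 (adjusted p = 0.00787), close to the overall median, and it was at -0.002 (adjusted p = 0.954) once libraries were scaled by median ratio. *Tyk2*, the other kinase, was at 0.11 and did not pass (adjusted p = 0.0929), but passed as higher after that scaling, at 0.21.

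Transcripts of the 2 interferon genes listed in the data were near the detection limit. Of 21 interferon genes looked for by name, *Ifnb1* and *Ifnk* were listed, and both were below the FPKM filter and not tested. The others have no listed value, so their levels are not known here. *Ifnb1*, which encodes interferon beta, had 0 fragments in each control library and 5, 2 and 5 fragments in the CITED2-deficient libraries. The 12 fragments amount to 0.162 in every 1000000 fragments (95% exact Clopper-Pearson interval 0.0837 to 0.283). The control group had 0 of 55141924 fragments, for which the upper bound of the same kind of interval was 0.0669 in every 1000000 and a limit of 3 counts over the group would be 0.0544. *Ifnk* had 1 fragment in each group. Intervals and limits of this kind cover counting error only.

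Other reported enzymes of ISG15 were less uniform than the 5 genes. Of 2 other genes reported to act as ISG15 ligases, *Trim25*, also a ubiquitin ligase of RNA sensing, rose from 88.0 ± 3.57 to 146 ± 2.74 FPKM (SD, n = 3 each), or by 0.73 on the log2 scale (adjusted p = 4.52e-07 from limma). *Arih1* was at 0.03 and did not pass (adjusted p = 0.479), though it did at 0.14 after median-ratio scaling. Of 6 other proteases reported to cleave ISG15, 5 were tested. Of the 5, 0 passed as higher and 2 as lower, beside 16.7% and 34.6% of all tested genes. *Usp21* (-0.25, adjusted p = 0.00506) and *Usp14* (-0.13, adjusted p = 0.0172) were lower, the latter not after median-ratio scaling or quantile normalization. *Usp16* (-0.06), *Usp5* (-0.001) and *Usp2* (-0.15) did not pass, and *Usp13* was below the filter. Both subunits of LFA-1, the integrin that free ISG15 binds, were slightly higher, *Itgal* at 0.30 (adjusted p = 0.00469) and *Itgb2* at 0.14 (adjusted p = 0.00232). Beside them, 16.7% of all tested genes passed as higher. A larger log2 fold change than that of *Itgal* was found for 12.8% of tested genes, and than that of *Itgb2* for 19.9%.

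The close relatives of the 5 genes were then examined family by family, since ISG15, its enzymes and its protease each belong to a larger family of the ubiquitin system. Of 12 other ubiquitin-like modifiers examined, 11 were tested, 2 passed as higher and 4 as lower, shares near those of all tested genes (16.7% and 34.6%), and the median log2 fold change was -0.07. *Urm1* (0.16) and the polyubiquitin gene *Ubb* (0.15) were higher, but *Urm1* passed in 4 and *Ubb* in 2 of 6 fits that left out 1 library, and neither passed without CITED2-deficient replicate 3. The groups of *Ubb* overlapped, and with no filter its adjusted p was 0.113. Of these 11 genes, *Rps27a* (-0.48) and *Fau* (-0.41), which encode fusions of ubiquitin or a ubiquitin-like protein with a ribosomal protein, and *Sumo2* (-0.16) had the largest falls. *Ubd*, which encodes FAT10, a modifier with a pair of ubiquitin-like domains as in ISG15, was below the filter, with 0 FPKM in control and 0.0570 ± 0.0623 FPKM in CITED2-deficient BMDMs. After median-ratio scaling 3 of the 11 passed as higher and 2 as lower, beside 2696 and 2490 of all 11687 tested genes.

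The 8 other E1 genes examined activate ubiquitin, SUMO, NEDD8 and other modifiers. In limma 0 passed as higher and 2 as lower, beside 16.7% and 34.6% of all tested genes. All 8 had a log2 fold change below 0 with the FPKM as deposited. *Uba2* (-0.29, adjusted p = 0.000788) and *Sae1* (-0.22, adjusted p = 0.00894), which together form the SUMO-activating enzyme, were lower. The others, *Uba1*, *Uba3*, *Nae1*, *Uba6*, *Atg7* and *Mocs3*, lay between -0.15 and -0.02 and did not pass. After median-ratio scaling *Uba1* (0.03), *Uba3* (0.07), *Nae1* (0.08) and *Atg7* (0.03) were above 0, again without passing, and *Sae1* no longer passed (-0.12, adjusted p = 0.103). *Uba7*, at 0.85, was above all 8, and at 0.96 it was after that scaling too. Of 34 other genes with a Ube2 name, pseudogenes included, 31 were tested, 0 passed as higher and 9 as lower in limma, with a median of -0.08. The 9 are a share near the 34.6% of all tested genes that were lower. At an unadjusted p under 0.05 the count of higher genes was 1, and limma-voom also called 0 as higher. The largest falls were those of *Ube2g2* (-0.32), *Ube2o* (-0.31) and *Ube2w* (-0.30). *Ube2l3*, the closest relative of *Ube2l6* and a ubiquitin carrier, had 128 ± 3.33 and 122 ± 0.994 FPKM (SD, n = 3 each), which at -0.07 on the log2 scale did not pass (adjusted p = 0.101). After median-ratio scaling 3 of the 31 passed as higher and 5 as lower, beside 2696 and 2490 of all 11687 tested genes.

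Among the 4 other Herc genes, *Herc4* fell from 49.3 ± 0.920 to 37.1 ± 1.14 FPKM (SD, n = 3 each; log2 fold change -0.40, adjusted p = 3.46e-05 from limma). *Herc3* (0.005), *Herc2* (-0.06) and *Herc1* (-0.12) did not pass. Of 46 other genes with a Usp name, which largely encode ubiquitin proteases and include the 6 proteases named above, 42 were tested. Of the 42, 4 passed as higher and 8 as lower, beside 16.7% and 34.6% of all tested genes. The median of the 42 was -0.03. *Usp25*, a deubiquitinase, rose from 70.4 ± 2.15 to 116 ± 4.94 FPKM (0.71, adjusted p = 1.08e-06), the largest rise of that list. *Usp6nl* (0.37), which by function is a GTPase-activating protein, and *Usp4* (0.26) followed, and *Usp11* (-0.68), *Usp28* (-0.51) and *Usp49* (-0.50) had the largest falls. *Usp18*, at 2.30, was above all 42. After median-ratio scaling the split of that list was 10 higher and 5 lower. Of all 11687 tested genes, 2696 were higher and 2490 lower with that scaling. Counts in these families moved with the scaling in this way, while the 5 pathway genes passed as higher under each scaling tried.

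**Figure D4:**
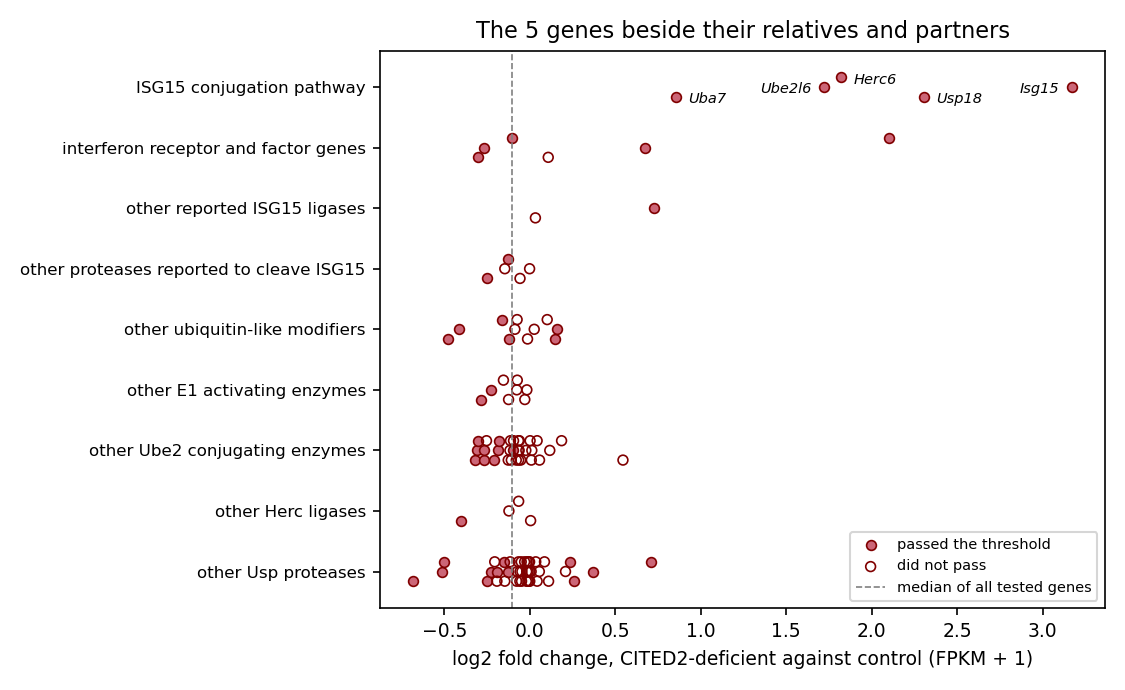
Log2 fold change of each tested gene in the pathway, in its partners and in its relatives, with filled points for genes past an adjusted p of 0.05 and a dashed line at the median of all tested genes (-0.10). The 5 pathway genes lie between 0.85 and 3.17, and the families of the same biochemical kind center near the dashed line.

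The genes whose profile over the 6 libraries was nearest to each pathway gene were found among all tested genes, by the root mean square distance between log2(FPKM + 1) values centered on their means. Nearest to *Isg15* were *Cmpk2* (distance 0.059, 21.8 to 196 FPKM), which encodes a mitochondrial nucleotide kinase, and *Ifi208* (0.064) and *Ifi213* (0.080), of the interferon-inducible Ifi200 family. Nearest to *Ube2l6* were *H2-T22* (0.053), a class I MHC gene, *Fcgr4* (0.053), an activating Fc receptor gene, and *Tap1* (0.055), which encodes a peptide transporter of antigen presentation. Nearest to *Herc6* were *Mndal* (0.086), *Slfn9* (0.088) and *Ddx58* (0.093), the last encoding the RNA sensor RIG-I. *Usp18* had *Nes* (0.098), *Pde7b* (0.106) and *Helz2* (0.110), and *Uba7* had *Anxa4* (0.012), *Atp8b4* (0.019) and *Sema4d* (0.020). Among the pathway genes themselves, the nearest pair was *Ube2l6* and *Herc6* (0.178) and the farthest was *Isg15* and *Uba7* (1.163). With 6 libraries in 2 groups, the genotype difference enters each such distance.

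The differences of the 5 genes held under the other ways of processing that were tried. When libraries were left out 1 at a time, log2 fold changes were 3.10 to 3.25 for *Isg15*, 2.23 to 2.39 for *Usp18*, 0.84 to 0.87 for *Uba7*, 1.69 to 1.77 for *Ube2l6* and 1.69 to 1.90 for *Herc6*. These ranges overlap only for *Ube2l6* and *Herc6*. Across the other 10 settings, among them median-ratio scaling, quantile normalization and limma-voom on recovered fragments, *Isg15* was at 3.17 to 3.27 and *Uba7* at 0.85 to 0.96. Each of the 5 genes passed the threshold in each of these settings, and the largest adjusted p was 0.000105, for *Herc6* when limma was run without a trend of variance with expression.

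**Figure D5:**
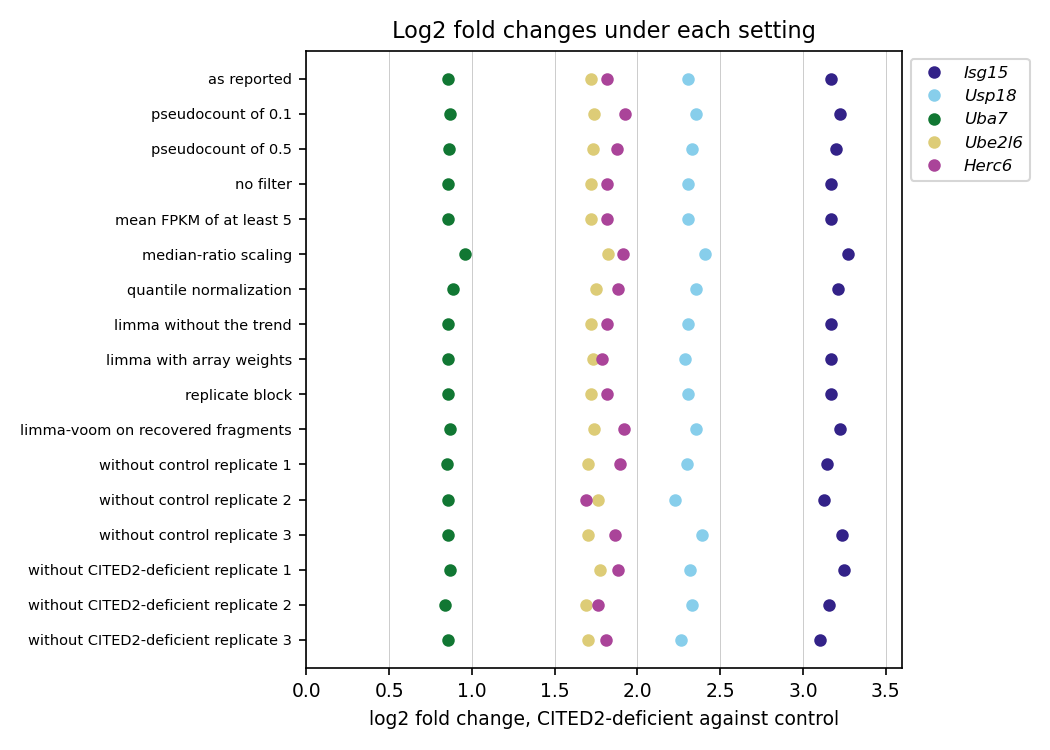
Log2 fold change of each of the 5 genes as reported, under 10 other settings and without each library in turn. The points of a gene form narrow bands, from 0.84 to 0.96 for *Uba7* and from 3.10 to 3.27 for *Isg15*, and *Ube2l6* and *Herc6* are the neighbors whose bands meet.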

How the data were processed

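Total RNA of BMDMs was depleted of ribosomal RNA and made into stranded libraries by the authors. The authors mapped reads to mm10 with STAR, and Cuffdiff with the GENCODE annotation gave the deposited FPKM values, 1 per gene and library, with no pooling. For tool versions and the annotation release, the sources used here give nothing. FPKM are scaled to library size, so large changes in some genes shift all others.

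Each gene averaging 1 FPKM or more entered a test of log2(FPKM + 1) values by limma 3.58.1 (R 4.3.3, variance trend), adjusted by the Benjamini-Hochberg method over 11687 genes. The fit was also run on simulated counts with 1 setting of spread for all genes and libraries, which the data need not share. Samples were grouped by their titles. With mean transcript lengths of GENCODE vM21, 21355 of 22220 matched genes (96.1%) gave fragment numbers within 0.02 of whole in all 6 libraries. Chi-square values per gene between replicates were 2.26 to 5.86, so no library was counted as a duplicate. Ratios of gene pairs were compared by exact permutation tests over libraries.

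The pathway genes and all gene lists were chosen with earlier results of these data known. Named are the 5 genes, *Cited2*, genes of lists of up to 10 (all, except that of the cell type markers a few were named, chosen after their values were seen), from longer lists the 3 top rises and 3 top falls that passed, with *Ube2l3*, and the 3 genes nearest in profile to each pathway gene. *Ubd* was named after its values were seen. Alternatives were pseudocounts of 0.1 and 0.5, no filter or a stricter one at 5 FPKM, median-ratio scaling, quantile normalization, limma without the trend or with array weights, a replicate block, limma-voom on recovered fragments, a 2-fold minimum and leaving out each library. The authors' own comparison by Cuffdiff needs alignments and was not repeated. Promoters came from RefSeq (GRCm38.p6). Some genes of the lists are not reported here and were left out of their counts.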

Additional observations from a re-analysis of the deposited data

How the results depend on the processing

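The 5 pathway genes kept their direction and their side of the threshold in each setting tried, except that *Uba7* did not reach a 2-fold minimum, which left 4 of the 5. The replicate block left *Isg15* at 3.17 and called 5708 genes, against 5994 without it. Deviations of same-numbered libraries correlated at 0.0138, 0.00784 and 0.0402, and those of differently numbered libraries at -0.0521 to 0.0354. No clear pairing was seen, but so few libraries cannot exclude one. The block changed no call of a pathway gene. Counts over the small lists moved more. A 2-fold minimum left 615 of all genes called. Median-ratio scaling gave 1 call among the other E1 genes, 1 among the other proteases reported to cleave ISG15 and 2 among the other reported ligases. Quantile normalization gave 1 among those proteases. Of all 11687 tested genes, median-ratio scaling called 5186 and quantile normalization 5390. With no filter, 1 of 2 interferon ligand genes, *Ifnb1*, was called, as higher (adjusted p = 0.0119 from limma). In that setting 2202 of all 22248 genes passed as higher. Limma-voom on recovered fragments called 2 of the other Herc genes. Leaving out each library in turn gave 1 to 2 calls among the Herc genes, with 2 without control replicate 2, and 1 to 2 among the proteases, with 1 without control replicate 1 or CITED2-deficient replicate 3. Of the other ubiquitin-like modifiers, 2 passed as higher, with 1 under the replicate block, with no filter or without the trend, 0 without CITED2-deficient replicate 3, and 1 when any control library or CITED2-deficient replicate 1 was left out. The cause of these shifts was not tested. Per base of the longest transcript, levels of *Usp18*, *Uba7*, *Ube2l6* and *Herc6* were lower (for example *Herc6* 3.65 FPKM in control and 13.8 FPKM in CITED2-deficient BMDMs), while the fold of the means stays the same by construction. With 0 to 5 fragments of *Ifnb1* per library, depth limits what can be said of interferon transcripts.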
